A study of Mus musculus with 28 samples.

Results

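The MYST family holds 5 lysine acetyltransferases of mammalian cells, *Kat5* (TIP60), *Kat6a* (MOZ), *Kat6b* (MORF), *Kat7* (HBO1) and *Kat8* (MOF). They transfer acetyl groups to histones, mainly histone H4 for *Kat5* and *Kat8* and histone H3 for *Kat6a*, *Kat6b* and *Kat7*, and each works inside a multi-subunit complex that sets where it acts. *Kansl1*, *Kansl2* and *Kansl3* encode subunits of the non-specific lethal (NSL) complex, in which *Kat8* acts at gene promoters. *Brpf1* and *Brpf3* encode bromodomain scaffolds that join the enzymes *Kat6a*, *Kat6b* and *Kat7* to chromatin. Loss of one copy of *KANSL1*, *KAT6A*, *KAT6B* or *BRPF1* causes neurodevelopmental syndromes in people. These 10 genes, of 51647 genes listed in either of the deposited count tables, were taken by their symbols in the GENCODE M21 annotation. *Kat6a* and *Kansl1* were chosen by their measured differences from Water mice, for which the study lists *Kat6a* in both drinking groups and *Kansl1* in Acute mice. Their differences between groups are therefore given as descriptions, and a count of passing genes that includes them was fixed in part by that choice. The other members were added as relatives of these genes.

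RNA was measured by sequencing in the amygdala of 28 adult female C57BL6/J mice, all individually housed with 2 drinking tubes over 28 days. The 10 Water mice drank water alone, the 9 Acute mice had water until a single access to 20% ethanol on the last day, and the 9 Chronic mice chose between 20% ethanol and water every other day. Tissue was taken on day 29 as micropunches that covered the central and basolateral amygdala together, and the Acute and Chronic mice had both fluids in the home cage until anesthesia. The mice came in 2 batches, with 4 Water, 4 Acute and 3 Chronic mice in the first and 6, 5 and 6 in the second, and each mouse was 1 library. Total counts ran from 20393352 to 22569562 per mouse in the first batch and from 20004380 to 20890964 in the second. Of 20 differences in summed markers of 10 cell types and regions between a drinking group and Water mice, 0 passed 0.05 after adjustment (exact permutation test over mice within batches, two-sided; 1 passed unadjusted). That one was the score of 6 central amygdala genes, which was 0.24 higher on the log2 scale in Acute mice (exact p = 0.0286, adjusted p = 0.571). Neuronal markers were abundant, with *Snap25* at a median of 1598 CPM (counts scaled by library size), and choroid plexus markers, from tissue outside the amygdala, varied with an SD of 1.82 on the log2 scale over mice. In such bulk tissue, fewer cells of a type and less RNA per cell cannot be told apart.

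*Kat5*, on chromosome 19 from 5603014 to 5610237 (GRCm38), was listed in the table of the second batch only. The same held for 217 of the 719 protein-coding genes of that chromosome. It was therefore analysed in the 17 mice of the second batch. The other 9 members were listed for all 28 mice and passed the filter of a mean of 10 counts, with mean counts from 320 for *Kat8* to 2269 for *Kat7*. *Kat6a* lies on chromosome 8 from 22859535 to 22943259, *Kansl1* on chromosome 11 from 104333229 to 104468861 and *Kat6b* on chromosome 14 from 21481434 to 21672478. Some members overlap other annotated genes, among them *Kat5* with *Rnaseh2c* over 4006 bases and *Brpf1* with the antisense gene *Gm15492* over 16195 bases, both on the opposite strand. Whether the counting used strand is not given in the sources used here, and the reads of such pairs may be mixed.

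The 3 NSL subunits are shown by the 250 bases before a RefSeq transcription start (GRCm38.p6), because their differences from Water mice, given further on, lay on both sides of 0. Capitals mark matches on either strand to the GC box GGGCGG or to the ETS core CCGGAA, which share no base here.
Kansl1, chr11:104469444-104469693, minus strand: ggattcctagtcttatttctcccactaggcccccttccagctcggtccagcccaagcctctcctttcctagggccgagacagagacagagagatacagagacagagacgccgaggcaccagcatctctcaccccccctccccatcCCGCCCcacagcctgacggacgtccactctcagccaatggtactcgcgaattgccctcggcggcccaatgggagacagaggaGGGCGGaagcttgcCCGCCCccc
Kansl2, chr15:98534270-98534519, minus strand: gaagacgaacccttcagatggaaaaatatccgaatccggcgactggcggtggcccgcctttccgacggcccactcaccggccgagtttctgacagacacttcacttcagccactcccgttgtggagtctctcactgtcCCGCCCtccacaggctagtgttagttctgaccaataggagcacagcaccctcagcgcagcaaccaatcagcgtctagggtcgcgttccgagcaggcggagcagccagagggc
Kansl3, chr1:36369182-36369431, minus strand: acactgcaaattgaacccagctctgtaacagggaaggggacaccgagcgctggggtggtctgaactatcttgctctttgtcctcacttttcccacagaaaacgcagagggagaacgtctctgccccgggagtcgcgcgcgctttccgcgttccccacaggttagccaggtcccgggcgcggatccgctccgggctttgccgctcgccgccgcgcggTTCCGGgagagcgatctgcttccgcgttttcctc
The stretch before *Kansl1* held 3 GC boxes, that before *Kansl2* held 1 and that before *Kansl3* held 0 GC boxes and 1 ETS core. *Kansl1* has 2 other starts in the table, which overlap each other, each with 2 GC boxes and a GC content of 76.8% and 78.4%. The GC content of the stretches shown was 63.2%, 60% and 62.8%, against a median of 52.4% over 32851 such stretches of all genes. The tables held 14 starts for 9 of the members, and 11 of these 14 had a GC box within the 250 bases, compared with 32.7% of all stretches. An ETS core was found before 2 of the 14 starts (12% of all stretches), the YY1 core GCCATNTT before 1 (3.91%), and the CRE TGACGTCA before 0 (1.55%). Several starts of 1 gene overlap, so the 14 are not separate observations, and a match of letters is not a bound site.

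The members differed in level more than they differed between groups. Levels between genes were compared on the FPKM scale, which divides CPM by the kilobases of merged exons, in the 6 Water mice of the second batch. *Kat7*, the acetyltransferase of the HBO1 complex, had the highest median level at 19.5 (range 18.9 to 20.7), followed by *Kansl1* at 13.4. *Kat5*, *Kansl3* and *Kansl2* followed at 11.7, 11.1 and 10.4, and the ranges of neighbours in this order overlapped. *Kat6a* stood apart from its neighbours at 7.80 (range 7.20 to 8.66). *Kat8*, *Brpf1* and *Brpf3* had medians of 5.50, 5.25 and 5.14 with overlapping ranges, and *Kat6b* had the lowest at 3.23 (range 2.99 to 3.51). The median level of all 16266 genes tested was 4.02 in these mice. In the 4 Water mice of the first batch, the 9 members listed there kept this order, except that *Brpf3* came before *Brpf1* (4.91 and 4.70, overlapping ranges). The length used matters for these levels: per length of the longest transcript, *Kat6b* had 7.05 and *Kat8* had 10.1, *Kat5* came second at 18.3, and *Brpf3* was the lowest at 6.21. On that length *Kat6a* (range 7.25 to 8.72) no longer stood apart and overlapped *Brpf1* (6.64 to 7.68) and *Kat6b* (6.54 to 7.67).

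**Figure D1:**
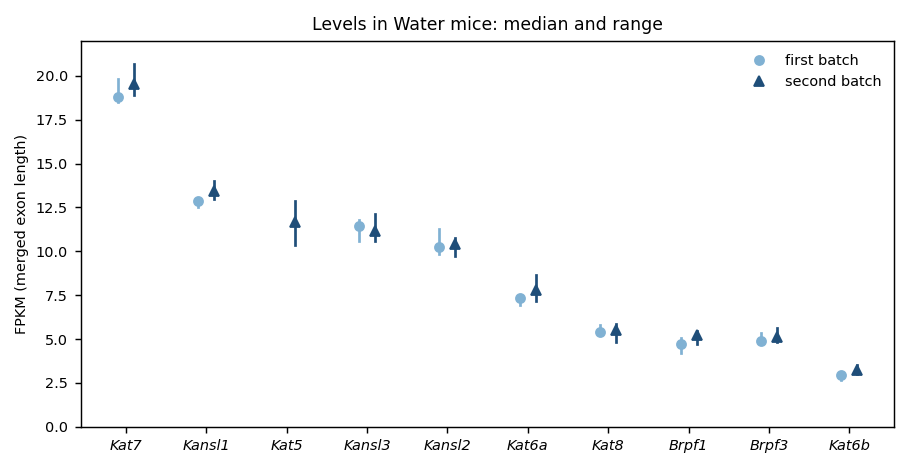
Level of each member in Water mice (y axis, FPKM scale with merged exon length) as median (symbol) and range (line) of the 4 mice of the first and the 6 mice of the second batch. *Kat7* is highest at 19.5 and *Kat6b* lowest at 3.23 in the second batch, and *Kat5* is shown for the second batch alone.

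*Kat6a* encodes an enzyme that acetylates histone H3 and is known for its part in stem cell maintenance. In the first batch its level was 67.2, 64.0, 68.3 and 68.0 CPM in the Water mice, 59.7, 59.7, 59.8 and 61.5 CPM in the Acute mice, and 65.1, 62.3 and 58.1 CPM in the Chronic mice. All 4 Acute mice of this batch therefore lay below all 4 Water mice, whereas the highest Chronic mouse lay above the lowest Water mouse. In the second batch it was 66.1, 72.5, 66.8, 79.5, 70.7 and 74.3 CPM in Water mice, 63.5, 62.7, 68.9, 65.7 and 63.9 CPM in Acute mice, and 60.5, 68.9, 58.8, 61.5, 64.1 and 65.2 CPM in Chronic mice. Here 1 Acute and 1 Chronic mouse lay above the lowest Water mouse. With the batch difference removed, the means were 69.8 ± 3.87 CPM in Water (SD, n = 10), 63.1 ± 1.95 in Acute (n = 9) and 62.6 ± 3.52 in Chronic mice (n = 9). All 9 mice of each drinking group lay below the Water mean, and 8 Acute and 7 Chronic mice lay below the lowest Water mouse. The log2 fold change against Water was -0.15 (95% interval -0.22 to -0.08) in Acute and -0.16 (-0.23 to -0.09) in Chronic mice. *Kat6a* was chosen on these comparisons, so the intervals do not allow for that choice and are descriptions. Both comparisons use the same Water mice.

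*Kansl1*, the scaffold subunit of the NSL complex, had the smallest spread of the 9 members fitted in both batches. Its SD within group and batch was 0.05 on the log2 scale, against a median of 0.10 over 7410 genes averaging 300 to 3000 counts. A small spread favours listing by the study, so the value is a description. *Kansl1* itself averaged 1811 counts. Its level in the first batch was 86.1, 88.3, 89.4 and 88.5 CPM in Water mice, 85.7, 78.5, 81.1 and 83.7 CPM in Acute mice, and 87.1, 85.9 and 83.9 CPM in Chronic mice. In the second batch it was 92.0, 92.8, 94.4, 90.6, 89.2 and 96.4 CPM in Water, 82.2, 85.5, 83.5, 91.2 and 88.9 CPM in Acute, and 86.4, 91.3, 93.9, 83.4, 84.5 and 88.4 CPM in Chronic mice. The Acute mice were below all Water mice in the first batch, and the groups overlapped in the second. With the batch removed, 9 of 9 Acute and 8 of 9 Chronic mice lay below the Water mean, and 7 and 5 lay below the lowest Water mouse. The log2 fold change was -0.10 (95% interval -0.15 to -0.05) in Acute and -0.06 (-0.11 to -0.01) in Chronic mice. These intervals, too, do not allow for the choice of the gene and are descriptions.

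**Figure D2:**
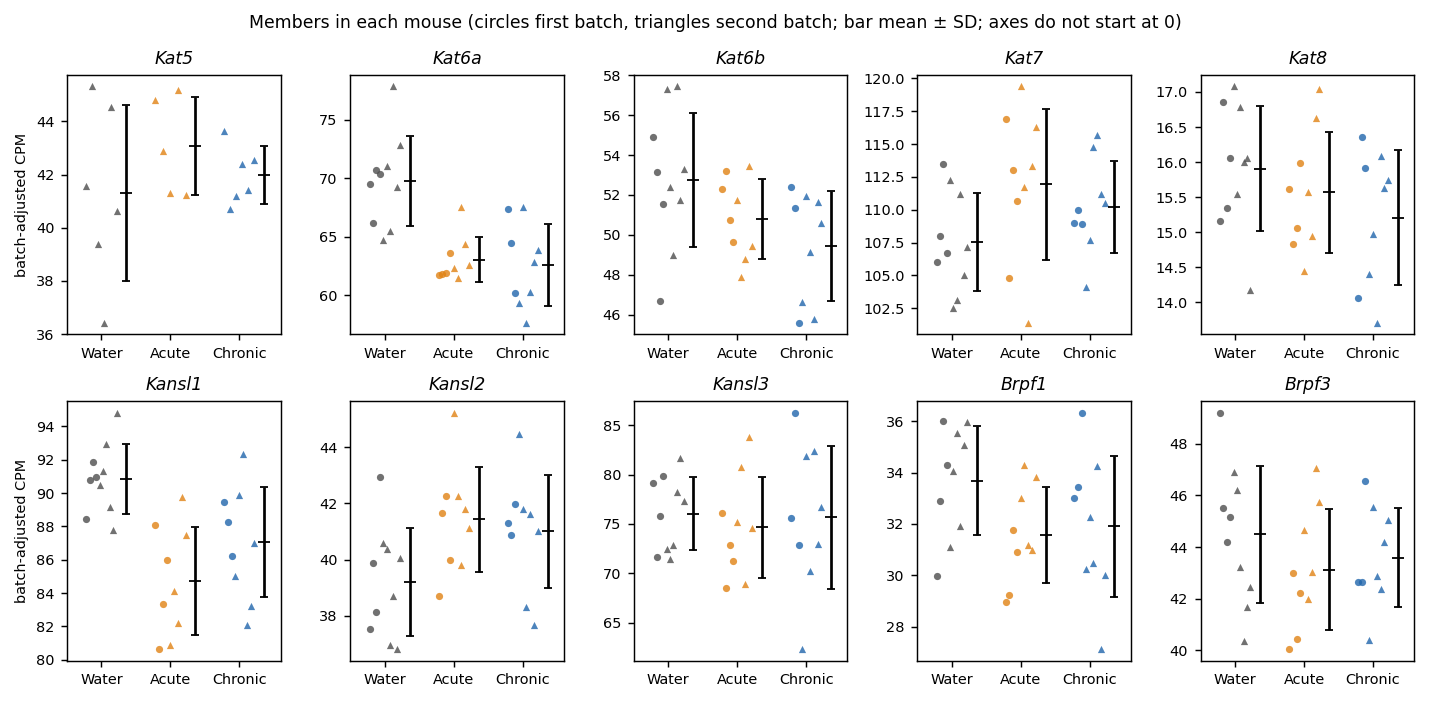
Batch-adjusted CPM (y axes, not starting at 0) of the 10 members in each Water, Acute and Chronic mouse, with circles for the first and triangles for the second batch and bars for the mean ± SD. In *Kat6a* the Water mice lie between 64.8 and 77.9 and the Acute mice between 61.5 and 67.6, and in every member the groups overlap.

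None of the other 8 members passed against Water mice after adjustment over all genes (edgeR quasi-likelihood fit of group and batch, Benjamini-Hochberg adjustment over 16266 genes). Of these, 7 were fitted in both batches, and 0 of the 7 were called in Acute mice, where 0% of all genes were called, and 0 in Chronic mice, where 0.0184% were. At an unadjusted p under 0.05, 0 of the 7 were lower in Acute mice, compared with 4.45% of all genes, and 1, *Kansl2*, was higher, compared with 5.07%. That 0 rests near the threshold, since *Brpf1* (edgeR p = 0.0563) was under it in 6 of 14 alternative settings. In Chronic mice 1 of the 7, *Kat6b*, was lower, compared with 5.65% of all genes, and 0 were higher, compared with 4.81%. *Kat6b* was lower in 9 of the 14 alternative settings, and its log2 fold change was -0.04 with the GC and length offsets described further on, compared with -0.09 without them. DESeq2 with batch in the model called 0 of the 7, compared with 0.0492% of all genes in Acute and 0.221% in Chronic mice. ComBat-seq followed by DESeq2, the route nearest to the study's own, also called 0 of the 7, compared with 0.184% and 0.54% of all genes. The median log2 fold change of the 7 was -0.03 in both drinking groups, and that of all genes tested was 0.00 in both. No member separated from Water mice without overlap in either drinking group, as 0.0123% of all genes did downward and 0.00615% upward in Acute mice, and 0% and 0.00615% in Chronic mice.

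Among the enzymes, *Kat6b*, the close paralog of *Kat6a*, had 52.7 ± 3.36 batch-adjusted CPM in Water (SD, n = 10), 50.8 ± 2.0 in Acute (n = 9) and 49.5 ± 2.76 in Chronic mice (n = 9). Its log2 fold change was -0.05 in Acute (edgeR adjusted p = 0.657) and -0.09 in Chronic mice (95% interval -0.17 to -0.02, edgeR adjusted p = 0.366), with 9 of 9 Chronic mice below the Water mean. *Kat7* went the other way, at 108 ± 3.75 CPM in Water and 112 ± 5.77 and 110 ± 3.52 CPM in Acute and Chronic mice. Its log2 fold changes of 0.06 and 0.03 had edgeR adjusted p-values of 0.533 and 0.711. *Kat8*, the enzyme of the NSL and MSL complexes, was the least abundant in counts, at 15.9 ± 0.89 CPM in Water mice, and it had 15.6 ± 0.86 CPM in Acute and 15.2 ± 0.96 CPM in Chronic mice. Its log2 fold changes were -0.03 and -0.06 (edgeR adjusted p = 0.853 and 0.619). *Kat5*, the enzyme of the TIP60/NuA4 complex, was fitted over the 16435 genes of the second table, in which 0% and 0.0243% of genes were called. It had log2 fold changes of 0.06 in 5 Acute and 0.02 in 6 Chronic mice against 6 Water mice (edgeR adjusted p = 0.920 and 0.878). The 95% intervals were -0.04 to 0.17 for the single access and -0.08 to 0.12 for repeated access.

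Of the other 2 NSL subunits, *Kansl2* had estimates above 0 and *Kansl3* had estimates just below 0. *Kansl2* had 39.2 ± 1.92 batch-adjusted CPM in Water (SD, n = 10), 41.4 ± 1.88 in Acute and 41.0 ± 2.01 in Chronic mice (n = 9 each). Its log2 fold changes of 0.08 (95% interval 0.01 to 0.15) and 0.07 (-0.0049 to 0.14) had edgeR adjusted p-values of 0.488 and 0.511, and 8 of 9 Acute and 7 of 9 Chronic mice lay above the Water mean. *Kansl3* had log2 fold changes of -0.03 (95% interval -0.12 to 0.07, which includes the value of *Kansl1*) and -0.01 (edgeR adjusted p = 0.896 and 0.98), and its spread within group and batch, an SD of 0.11 on the log2 scale, was the largest of the 9. The difference between the subunits' fold changes was not tested.

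The scaffold *Brpf1*, which stimulates *Kat6a* and *Kat6b*, had 33.7 ± 2.12 batch-adjusted CPM in Water (SD, n = 10), 31.6 ± 1.87 in Acute and 31.9 ± 2.74 in Chronic mice (n = 9 each). Its log2 fold changes were -0.09 (95% interval -0.19 to 0.0027) and -0.08 (-0.17 to 0.02), with edgeR adjusted p-values of 0.533 and 0.583. *Brpf3*, which pairs mainly with *Kat7*, had -0.05 and -0.03 (edgeR adjusted p = 0.713 and 0.825).

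**Figure D3:**
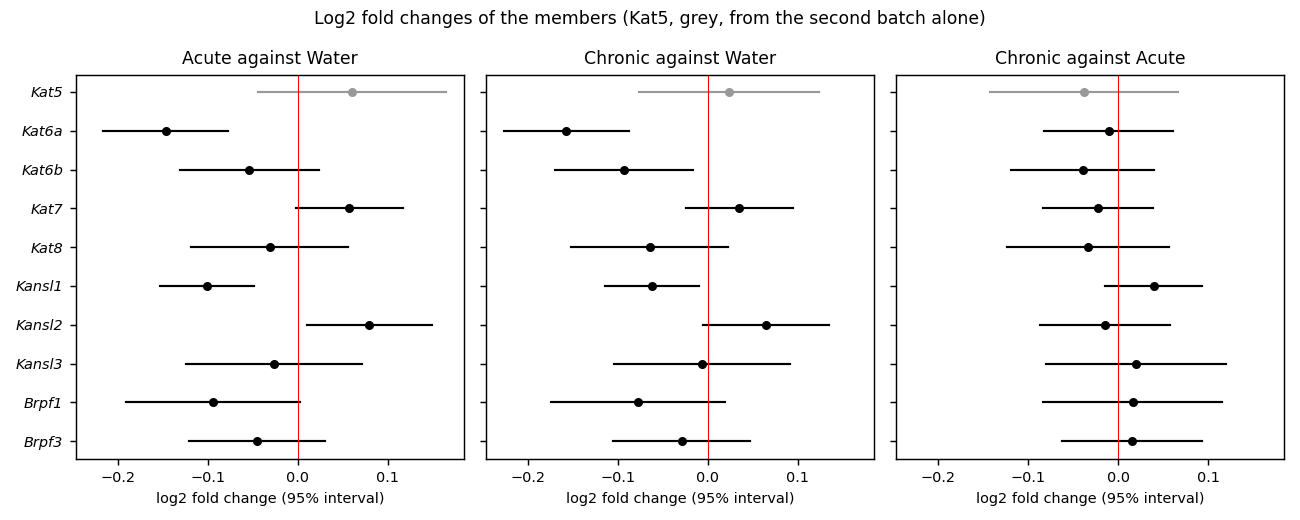
Log2 fold change (x axis) of each member in Acute against Water, Chronic against Water and Chronic against Acute mice, with 95% intervals from the edgeR fit, and *Kat5* in grey from the second batch alone. *Kat6a* lies furthest below 0 against Water at -0.15 and -0.16, and every interval of Chronic against Acute includes 0.

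Chronic and Acute mice were then compared directly. The study reported higher ethanol intake on the last day in Chronic mice, and higher blood ethanol in those of the second batch. Repeated access and the last dose therefore cannot be told apart here. This comparison reuses the mice on which *Kat6a* and *Kansl1* were chosen, so both are again given without a test. Of the 7 other members fitted in both batches, 0 were called, as were 0% of all genes, and at an unadjusted p under 0.05 0 were lower and 0 higher, compared with 2.5% and 1.95% of all genes. *Kat6a* differed by -0.01 on the log2 scale (95% interval -0.08 to 0.06). For *Kansl1*, chosen for its values in the same Acute mice, the difference was 0.04 (95% interval -0.01 to 0.09), with 7 of 9 Chronic mice above the Acute mean. In exact permutation tests over mice within batches (two-sided), the other 8 members gave p-values from 0.250 for *Kat6b* to 0.806 for *Brpf1*.

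The differences from Water were next taken within each batch. *Kat6a* had a log2 fold change of -0.15 in the first and -0.14 in the second batch in Acute mice, and -0.11 and -0.18 in Chronic mice. *Kansl1* had -0.10 in both batches in Acute mice, and -0.04 and -0.07 in Chronic mice. No member's effect differed between the batches after adjustment (edgeR interaction of batch and group, 0% of all genes called for Acute and 0.00615% for Chronic). At an unadjusted p under 0.05, 4.13% and 6.15% of all genes and 1 member in each group differed. These were *Brpf3* in Acute mice, with -0.15 in the first and 0.03 in the second batch (edgeR p = 0.0113, adjusted p = 0.999), and *Brpf1* in Chronic mice, with 0.04 and -0.14 (edgeR p = 0.0438, adjusted p = 0.802). The pooled values of *Brpf3* in Acute and of *Brpf1* in Chronic mice average batches whose estimates had opposite signs. *Brpf1* in Acute mice (-0.14 and -0.06) and *Brpf3* in Chronic mice (-0.07 and -0.0016) had the same sign in both batches.

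Libraries differed in how log2 CPM depended on gene length and GC content over all genes, and this varied with the drinking groups. The slope on log2 exon length, with batch means removed, averaged 0.0103 per doubling in Water mice, compared with -0.00615 in Acute and -0.00526 in Chronic mice. The slope per 10 percentage points of GC averaged -0.0217 in Water mice, compared with 0.000308 in Acute and 0.0238 in Chronic mice. Of 6 group differences in these slopes, that of GC between Chronic and Water mice passed 0.05 after adjustment (exact permutation test, p = 0.00628, adjusted p = 0.0377), and that of length between Acute and Water mice did not (exact permutation test, p = 0.0175, adjusted p = 0.0526). *Kat6a* has 9180 bases of exons, longer than 88.3% of the genes tested, and a GC content of 47.5%, compared with a median of 49.4%. Each library's trend on length and GC was also fitted as smooth curves (natural splines, 4 degrees of freedom each) and used as offsets. With these offsets, the log2 fold change of *Kat6a* was -0.11 in Acute and -0.12 in Chronic mice. That of *Kansl1* was -0.09 and -0.06. *Kat6b* moved most, to 0.01 in Acute and -0.04 in Chronic mice.

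Within groups and batches, 18 relations of members to these slopes were computed over 28 mice. *Brpf1*, with 55.4% GC, rose with the GC slope (Pearson r = 0.663, permutation adjusted p = 0.00630, Spearman rho = 0.635, adjusted p = 0.0299, and r = 0.615 without the 2 farthest mice). *Brpf3*, with 55.5% GC, was not seen to do so (r = 0.111, permutation adjusted p = 0.854, rho = 0.0268, adjusted p = 0.958). *Kat6b* fell with the GC slope (r = -0.633, permutation adjusted p = 0.0234, rho = -0.553, adjusted p = 0.0547, and r = -0.531 without the 2 farthest mice). *Kansl3* rose with the length slope (r = 0.637, permutation adjusted p = 0.0234; rho = 0.585, adjusted p = 0.0458; r = 0.502 without the 2 farthest mice). For *Kat6a* the relation to the length slope did not pass (r = 0.493, permutation adjusted p = 0.131; rho = 0.438, adjusted p = 0.207; r = 0.362 without the 2 farthest mice), and for *Kansl1* r was 0.0818 with length (rho = 0.0586, permutation adjusted p = 0.854 and 0.935). The part of these slopes in the differences between groups was not tested beyond the offsets above.

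**Figure D4:**
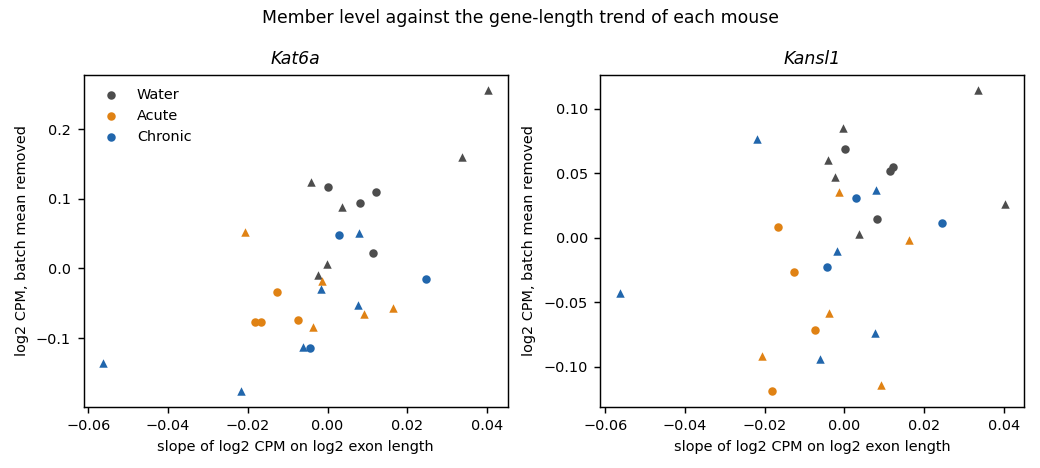
Log2 CPM of *Kat6a* and *Kansl1* with the batch mean removed (y axes) against each mouse's slope of log2 CPM on log2 exon length over all genes (x axes), colored by group, with circles for the first and triangles for the second batch. The Water mice with the slopes 0.0403 and 0.0337 have the 2 highest *Kat6a* values, and the mouse with the slope 0.0337 also has the highest *Kansl1* value.

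*Kat6a* and the other members were not seen to vary together among mice of 1 group and batch. Over 9 relations, Pearson r with *Kat6a* ran from -0.359 for *Kat5* (17 mice) to 0.367 for *Kat6b* (28 mice), and none passed (lowest permutation adjusted p = 0.684; Spearman rho -0.186 and 0.290, lowest permutation adjusted p = 0.667). Without the 2 farthest mice these were 0.0785 and 0.207. With *Kansl1*, r was 0.0452 (rho = 0.122, permutation adjusted p = 0.836 and 0.667). Of the 11706 genes that averaged 100 counts or more, those most like *Kat6a* over the 28 mice were *Dmxl1* (r = 0.824), *Mindy2* (0.804), *Cep170* (0.800), *Qser1* (0.797) and *Trip11* (0.786), and those most opposite were *Ctps* (-0.786), *Itm2c* (-0.753) and *Sgsm3* (-0.751). After the length and GC trends fitted as curves were removed, r was 0.410, 0.684, 0.338, 0.619 and 0.596 for the 5 most like, in the same order. For the 3 most opposite it was -0.588, -0.572 and -0.537. Among those most like *Kansl1* were *Wdr92* (0.673), *Cfap97* (0.670), *Elp6* (0.667) and *Ell* (0.618), and most opposite were *Glipr1* (-0.667), *Pcdha11* (-0.663) and *Pcdhga11* (-0.641). All these genes share the libraries and their depth with the reference gene, and their likeness is a description.

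The other subunits of these complexes and other histone acetyltransferases, 43 genes in 5 lists, were all tested. In both comparisons with Water 0 of 43 were called. At an unadjusted p under 0.05, 7 of 43 were lower and 1 higher in Acute mice, compared with 4.45% and 5.07% of all genes, and 9 of 43 were lower and 0 higher in Chronic mice, compared with 5.65% and 4.81%. The median log2 fold change was -0.02 in Acute and -0.03 in Chronic mice. Between Chronic and Acute mice 0 were called, as were 0% of all genes, with 2 lower and 0 higher at an unadjusted p under 0.05, compared with 2.5% and 1.95% of all genes.

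Of all genes tested, 49.4% had estimates below 0 in Acute and 49.0% in Chronic mice. Of the 7 further NSL partners, 6 had estimates below 0 in each drinking group, with a median of -0.04 in Acute and -0.07 in Chronic mice. *Hcfc1*, a transcriptional coregulator of the cell cycle, had -0.10 in both (edgeR adjusted p = 0.403 and 0.272), and *Phf20l1*, a reader of methylated lysine, had -0.13 and -0.14 (edgeR adjusted p = 0.430 and 0.272). *Msl2*, of the MSL complex that shares *Kat8* with the NSL complex, had -0.03 and -0.08 (edgeR adjusted p = 0.721 and 0.279), and *Msl3* of the same complex had -0.07 and -0.02 (edgeR adjusted p = 0.590 and 0.904). *Brd1*, another scaffold of the BRPF kind, had -0.07 and -0.06 (edgeR adjusted p = 0.477 and 0.449).

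Of the 17 TIP60/NuA4 subunits, which work with *Kat5*, 11 had estimates below 0 in Acute and 8 in Chronic mice, and their medians were -0.01 and 0.00. *Mbtd1* had -0.13 and -0.11 (edgeR adjusted p = 0.462 and 0.384) and *Epc1* had -0.02 and -0.09 (edgeR adjusted p = 0.875 and 0.241). Of 9 histone acetyltransferases of other families, 7 were below 0 in each group, with a median of -0.06 in both. *Ep300*, the p300 coactivator, had -0.11 and -0.09 (edgeR adjusted p = 0.477 and 0.461), and *Hat1*, which acetylates new histone H4, had -0.07 and -0.14 (edgeR adjusted p = 0.743 and 0.402).

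**Figure D5:**
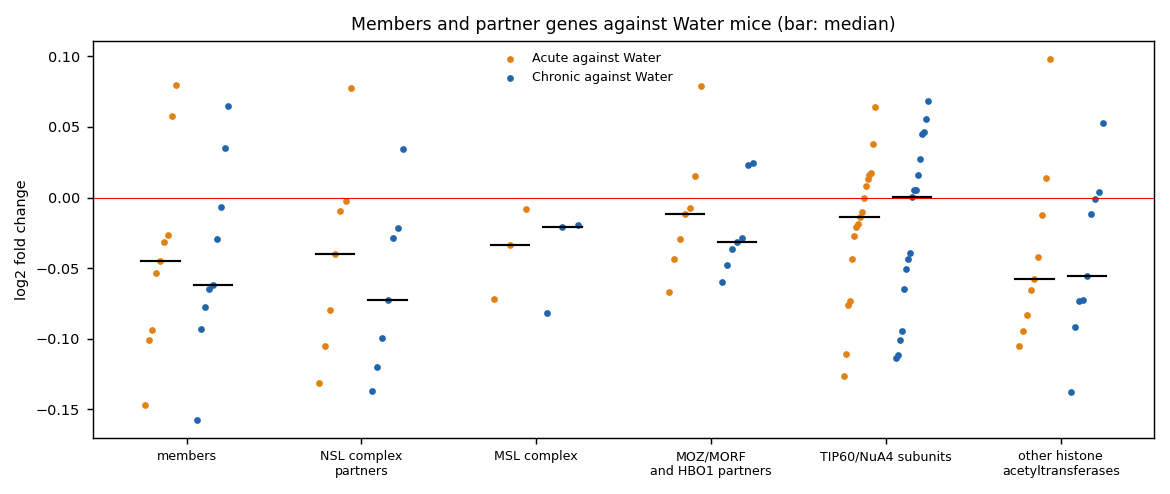
Log2 fold change against Water mice (y axis) of the 9 members fitted in both batches and of the 43 partner genes by list, in Acute and Chronic mice, 1 point per gene with a bar at the median. The medians of the NSL partners are -0.04 and -0.07, those of the TIP60/NuA4 subunits are -0.01 and 0.00, and none of the partner genes passed after adjustment.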

How the data were processed

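The authors checked reads with FastQC 0.11.8, quantified transcripts with Salmon 0.14.1 (GRCm38/mm10) and summed them to GENCODE M21 genes with tximport. The deposited values are estimated counts per gene, already whole numbers, in 1 table per batch. They were not normalized. Libraries of 1 group and batch differed beyond counting error (55 pairs, chi-square per degree of freedom from 3.13 to 14.9), so each mouse was 1 replicate.

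The 49477 genes of both tables were joined, and 16266 with a mean of at least 10 counts were tested with edgeR 4.0.16 (R 4.3.3; TMM factors, quasi-likelihood test, group and batch as terms, 1 fit over all 28 mice). Calls used an adjusted p under 0.05. Batch-adjusted CPM removed the batch difference on the log2 scale (prior count 2). Correlations used 100000 permutations within group and batch. DESeq2 1.42.0 and ComBat-seq (sva 3.50.0) were alternatives. On simulated counts for Chronic against Water over 16266 genes, 200 genes changed by 0.15 on the log2 scale were called in 11.5%, and those changed by 0.5 in 95%, so that changes of the size described here were mostly below what this design calls.

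Named genes were the 10 members, in each partner list and comparison with Water the gene with the smallest p with its value in both, and the 5 most like and 3 most opposite to *Kat6a* and *Kansl1*, of which 1 is not reported here. The members and lists were chosen with earlier results of these data known. Promoter sequences are from RefSeq (GRCm38.p6), where 9 of 10 members matched.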

Additional observations from a re-analysis of the deposited data

Results flagged for a closer look

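In *Kat6a*, 1 of the 9 Acute mice stood far above the other 8, at 0.0522 on the log2 CPM scale with the batch mean removed. It was mouse 3 of the second batch, with 68.9 CPM. This was 1 of 30 groups of mice examined for the 10 members, and about 1 in 20 such groups is flagged by chance. Without this mouse, the log2 fold change of *Kat6a* in Acute against Water mice was -0.16 (-0.15 with it).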

How the results depend on the processing

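By edgeR, 0 of 9 members and 0 of 43 partner genes were called in each comparison under every alternative and without each of the 28 mice. DESeq2 with batch as a covariate called 1 member, *Kat6a*, in Acute and 1, *Kat6a*, in Chronic mice, compared with 0.0492% and 0.221% of all genes. ComBat-seq followed by DESeq2, nearest to the study's processing, called 2 in Acute (*Kat6a* and *Kansl1*) and 1 in Chronic mice (*Kat6a*), compared with 0.184% and 0.54%. These contrasts chose both genes, so the calls are no further evidence, and the counts of 9 below include them. The count of members lower at an unadjusted p under 0.05 was 2 in Acute mice (4.45% of all genes; 2 to 3 when 1 of the 28 mice was left out) and 4 in the first batch alone (3.56%). In Chronic mice it was 3 (5.65%; 2 to 3 when 1 of the 28 was left out), and 1 in the first batch alone (1.67%). Of the 7 members not chosen, 2 were lower in Acute mice in the first batch alone, *Brpf1* and *Brpf3*. In Chronic mice 2 of the 7, *Kat6b* and *Brpf1*, were lower in the second batch alone, compared with 6.99% of all genes. *Brpf1* was lower in Acute mice under 6 of 14 alternatives and without any 1 of 8 mice. With GC and length offsets the count in Chronic mice stayed at 3, with *Brpf1* in place of *Kat6b*. The slopes on gene length led to a pair of alternatives added after the data were seen. In Chronic mice the count was 1 without the 2 steepest Water mice, 4 and 6 of the second batch (3.22% of all genes), and also 1 without the 3 steepest mice of any group (3.03%), which adds Chronic mouse 1 of that batch. *Kat6a* stayed between -0.15 and -0.11 in Acute and between -0.18 and -0.11 in Chronic mice over all 14 alternatives, single batches included.

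Replicate numbers recur across groups in the second batch, but the 16 pairs with the same number deviated together no more than the others (mean r = -0.008 and 0.001, 4 of 16 above 0.1), and 1 of 17 mice correlated best with its own number. The numbers were therefore not taken as pairs. With the replicate block, 2 members were lower at an unadjusted p under 0.05 in Acute and 3 in Chronic mice, and it changed no call.

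Several fold changes, from near 0 to -0.08 for *Brpf1* in Chronic against Water mice, changed sign. None of them was called, and the cause was not tested. In the first batch alone these were *Kansl3* at 0.030 and *Brpf1* at 0.040 in Chronic against Water, and *Kat6a* at 0.042, *Kat8* at 0.0086 and *Kansl2* at 0.027 in Chronic against Acute mice. In the second batch alone they were *Kansl3* at 0.020 and *Brpf3* at 0.035 in Acute against Water, and *Kansl3* at -0.044, *Brpf1* at -0.089 and *Brpf3* at -0.037 in Chronic against Acute mice. With GC and length offsets, *Kat6b* was 0.0077 in Acute and *Kat5* was -0.0074 in Chronic mice against Water, and *Brpf1* and *Brpf3* were -0.0042 and -0.0066 in Chronic against Acute mice. With the replicate block and these offsets the same values were 0.0066, -0.0066, -0.0068 and -0.0065, with *Kansl3* at -0.00048. ComBat-seq gave *Kat6a* 0.0026 in Chronic against Acute mice. Without the 2 and the 3 steepest mice, *Kansl3* was 0.0041 and 0.031 in Chronic against Water, and without the 3 *Kat6a* was 0.00028 in Chronic against Acute mice. Without 1 mouse each, *Kansl3* ranged from -0.036 to 0.024 and *Kat5* from -0.011 to 0.056 in Chronic against Water. In Chronic against Acute mice, *Kat6a* ranged from -0.024 to 0.0037, *Kansl2* from -0.029 to 0.0036, *Kansl3* from -0.0076 to 0.051 and *Brpf1* from -0.013 to 0.042. Correlations with *Kat6a* changed sign for *Kat5* without the 2 farthest mice (0.0785). After the length and GC trends fitted as curves were removed, they changed sign for *Kat6b* (-0.307), *Kansl1* (-0.0671) and *Kansl2* (0.149).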
